A study of Mus musculus with 24 samples.

Results

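The expression of 10 genes of the Notch pathway was followed in inguinal subcutaneous white adipose tissue of C57BL/6J mice. They are the receptors Notch1, Notch2, Notch3 and Notch4, the ligands Dll1, Dll4, Jag1 and Jag2, and the targets Nrarp and Hey1. The genes were chosen by name, with differences between these same groups already known, so their differences between groups are given as a description without a test. All 10 were found by symbol in both deposited count tables, among 38013 gene identifiers that the tables share, and all 10 passed the low-count filter in each comparison. The RNA sequencing study compared mice carrying a transgene of the γ1 subunit of AMPK (AMP-activated protein kinase), an enzyme of 3 subunits that senses the energy state of the cell. D316A-Tg mice carry the gain-of-function D316A form of the subunit and WT-Tg mice its wild-type form, so both genotypes carry a transgene. There were 4 groups of 6 libraries: D316A-Tg and WT-Tg mice aged 16 weeks on chow, and D316A-Tg and WT-Tg mice aged 24 weeks on a diet with 45% fat, the high-fat diet or HFD. Neither the promoter that drives the transgene nor the cells that express it could be taken from the labels.

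Notch receptors are single-pass membrane proteins that bind Delta-like and Jagged ligands on neighbouring cells. Ligand binding exposes the receptor to an ADAM protease and then to γ-secretase, and the freed intracellular domain joins the DNA-binding protein RBPJ and a Mastermind coactivator to switch on targets such as the HES and HEY repressors and Nrarp, a small feedback inhibitor of the pathway. In blood vessels Notch1, Notch4 and Dll4 act in endothelium, where Dll4 restrains sprouting and favours arterial fate, Notch3 is the receptor of vascular smooth muscle and pericytes, and Notch2 with the ligand Dll1 is needed for marginal zone B lymphocytes in the spleen.

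The promoters of Notch3, Nrarp and Dll1 are shown because, of the 10 genes, these are the ones whose 6 D316A-Tg libraries on chow all lay below all 6 WT-Tg libraries. Each window runs from 250 bases before to 50 bases after a transcription start, read 5′ to 3′ from the RefSeq annotation of GRCm38.p6, which lists 2 starts for Dll1. Capitals mark letters that match a motif searched on both strands.
Notch3, chr17:32166841-32167140, minus strand: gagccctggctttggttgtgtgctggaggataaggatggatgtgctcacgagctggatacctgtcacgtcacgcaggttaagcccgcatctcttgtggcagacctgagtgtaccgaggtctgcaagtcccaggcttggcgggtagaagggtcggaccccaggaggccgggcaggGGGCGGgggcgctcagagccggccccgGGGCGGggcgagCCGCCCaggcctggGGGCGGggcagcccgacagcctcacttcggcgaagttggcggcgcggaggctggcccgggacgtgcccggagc
Nrarp, chr2:25180508-25180807, plus strand: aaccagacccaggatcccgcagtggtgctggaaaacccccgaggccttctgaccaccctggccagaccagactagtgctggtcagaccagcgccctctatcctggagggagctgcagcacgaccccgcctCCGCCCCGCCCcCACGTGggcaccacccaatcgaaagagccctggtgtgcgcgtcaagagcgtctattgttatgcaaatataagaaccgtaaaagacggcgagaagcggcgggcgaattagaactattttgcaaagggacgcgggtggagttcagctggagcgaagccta
Dll1, first window, chr17:15375774-15376073, minus strand: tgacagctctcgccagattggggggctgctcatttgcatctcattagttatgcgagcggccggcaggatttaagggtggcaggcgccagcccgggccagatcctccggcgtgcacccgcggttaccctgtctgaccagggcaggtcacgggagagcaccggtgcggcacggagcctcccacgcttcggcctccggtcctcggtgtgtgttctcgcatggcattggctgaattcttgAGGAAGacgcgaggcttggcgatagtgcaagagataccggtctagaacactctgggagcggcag
Dll1, second window, chr17:15376883-15377182, minus strand: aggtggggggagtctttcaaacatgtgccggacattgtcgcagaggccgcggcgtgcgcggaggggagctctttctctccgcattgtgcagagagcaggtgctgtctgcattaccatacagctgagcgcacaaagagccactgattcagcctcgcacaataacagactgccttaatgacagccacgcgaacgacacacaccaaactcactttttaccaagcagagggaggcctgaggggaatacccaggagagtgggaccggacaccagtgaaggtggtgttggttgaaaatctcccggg
The motifs were the RBPJ core TGGGAA, its extended form GTGGGAA, which contains the core, the E-box CACGTG, which HES and HEY proteins can bind, the ETS motif AGGAAG and the GC box GGGCGG. Over 32851 RefSeq promoter windows of the same length, 25.6% held the RBPJ core, 6.38% the extended form, 7.15% the E-box, 35.4% the ETS motif and 35.7% the GC box. The Notch3 window held 4 GC boxes and the Nrarp window 2 GC boxes and an E-box that begins 108 bases before the start. The first Dll1 window held an ETS match and the second none of the motifs. The RBPJ letters were in none of the windows of the 9 genes that RefSeq lists here. Hey1 had no entry.

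Of the genes, 4 lie on chromosome 2 (Notch1, Dll4, Jag1 and Nrarp), 3 on chromosome 17 (Notch3, Notch4 and Dll1), 2 on chromosome 3 (Notch2 and Hey1) and Jag2 on chromosome 12. In GENCODE M21 on GRCm38, Notch3 spans chr17:32120820-32166852 on the minus strand, Dll1 chr17:15367354-15376872 on the minus strand and Nrarp chr2:25180758-25183339 on the plus strand. All 10 are protein coding. Exons of Nrarp overlap those of the antisense gene Gm38287 over 79.4% of their length, those of Dll1 overlap A930024N18Rik over 20.5% and those of Notch1 overlap antisense genes over 9.76%. For Notch3, Dll4 and Notch2 the overlap was 6.03%, 5.56% and 5.02%, and for the other 4 genes it was 0. The library kit keeps strand, but whether counting used it is not given, so reads of these genes and of their overlapping neighbours cannot be told apart. Where a neighbour had its own row in a table, its highest count in any library was 47, for Gm14207, which overlaps Dll4, on chow. A930024N18Rik, which overlaps Dll1, reached 26 on chow. D316A-Tg chow library 7 had 58 counts of Dll4 and 32 of Dll1. Gm38287, which overlaps Nrarp, and Gm42820, which overlaps Notch2, had a row in neither table, so their reads are not limited by these values.

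Libraries held 13254536 to 22748132 counts, and the 10 genes had from 31 to 2238 counts in a library. Markers of mature adipocytes, 10 of 10 measured, were abundant in all 24 libraries, with a mean log2 CPM (CPM, counts per 1000000 library counts after scaling) of 9.79 to 11.6. The lymph node was removed at dissection, per the labels' protocols, yet 11 libraries had B lymphocyte markers far above the rest: 8 and 11 of D316A-Tg and 1 to 4 of WT-Tg on chow, and 7, 8, 9 and 11 of D316A-Tg and 3 of WT-Tg on HFD. Their B lymphocyte score, the mean log2 CPM of 9 markers, was 4.06 or more, against 1.66 or less in the other 13. On HFD, 12 of 12 skeletal muscle markers tested were also called higher in D316A-Tg than in WT-Tg, with a score of 3.34 to 8.91 in D316A-Tg and 0.33 to 3.51 in WT-Tg. On chow the same 12 had negative log2 fold changes, with a median of −3.76 and none called, and a score of −0.42 to 4.70 in D316A-Tg and −0.42 to 7.71 in WT-Tg. Macrophage markers on HFD were negative for 10 of 10 tested, with a median of −1.10 and 4 called lower, and on chow 9 of 10 were negative with a median of −0.69 and none called. Many values below are also given without the B lymphocyte-rich libraries. Those fits kept 4 D316A-Tg and 2 WT-Tg libraries on chow, and 2 D316A-Tg and 5 WT-Tg libraries on HFD. Between genotypes they called 2305 of all genes on chow and 0 on HFD, so a call lost there on HFD is not particular to any gene.

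Among the receptors, Notch3 was lower in D316A-Tg fat on both diets. On chow it ran from 16.5 to 28.6 CPM in D316A-Tg libraries with a median of 19.6 CPM, against 33.1 to 59.5 CPM with a median of 43.6 CPM in WT-Tg libraries. On HFD it ran from 19.7 to 37.0 CPM in D316A-Tg with a median of 24.5 CPM, against 41.4 to 72.4 CPM with a median of 48.5 CPM in WT-Tg. On neither diet did the genotypes overlap. The fitted log2 fold change was −1.13 ± 0.17 (SE, n = 6 each) on chow, a level 2.19-fold lower, and −0.94 ± 0.20 on HFD, 1.92-fold lower. Ordered by level, the groups ran from D316A-Tg chow through D316A-Tg HFD and WT-Tg chow to WT-Tg HFD, and neighbours in that order overlapped. Fewer cells that express a gene and less RNA per cell cannot be told apart in whole tissue.

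Markers of smooth muscle and pericytes were also lower in D316A-Tg fat on chow. The smooth muscle and pericyte score, the mean log2 CPM of 13 markers, of which 12 averaged above 1 CPM, was 4.27 to 4.80 in D316A-Tg and 4.83 to 5.95 in WT-Tg on chow, and 4.49 to 5.41 in D316A-Tg and 4.87 to 5.28 in WT-Tg on HFD. On chow 5 of the 13 markers were called lower and none higher, with Acta2, the smooth muscle actin, at −1.21 ± 0.29 (edgeR quasi-likelihood test, adjusted p = 0.0338), and on HFD 3 were called lower and 1 higher. The log2 fold changes of the 13 on HFD ran from −1.08 to 2.91 with a median of −0.30, and 11 were negative. The score averages all 13, and the part of skeletal muscle content in it was not tested. With that score as a covariate, the Notch3 difference was −0.66 ± 0.22 on chow and −0.73 ± 0.15 on HFD, and the chow value no longer passed the threshold. Without the 11 B lymphocyte-rich libraries it was −1.44 ± 0.15 on chow and −0.56 ± 0.20 on HFD, where neither it nor any other gene of the whole table passed. On HFD the Notch3 call was also lost with the endothelial score, at −0.27 ± 0.17, and with the B lymphocyte score, at −0.62 ± 0.18, as a covariate. Those covariates left 1 and 25 of all genes called on HFD, against 1241 without a covariate, so the loss is not particular to Notch3. Without D316A-Tg HFD library 9 alone the HFD value of Notch3 was −0.88 ± 0.21 and did not pass.

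Notch2 separated by library more than by genotype. On chow it was 44.6 to 97.7 CPM in D316A-Tg with a median of 49.5 CPM, against 51.6 to 125 CPM with a median of 90.4 CPM in WT-Tg. On HFD it was 52.8 to 94.3 CPM in D316A-Tg with a median of 64.5 CPM, against 42.9 to 58.7 CPM with a median of 49.7 CPM in WT-Tg. The genotypes overlapped on both diets, and the log2 fold change was −0.54 ± 0.26 on chow and 0.42 ± 0.14 on HFD, where Notch2 did not pass with edgeR but passed with DESeq2, at 0.42 ± 0.15, and without D316A-Tg library 12, at 0.48 ± 0.13. In the 6 B lymphocyte-rich chow libraries Notch2 ran from 73.9 to 125 CPM, against 44.6 to 56.4 CPM in the other 6, and in the 5 such HFD libraries from 58.7 to 94.3 CPM, against 42.9 to 56.8 CPM in the other 7. The libraries with high B lymphocyte markers were the ones with high Notch2 on both diets, with no overlap. How many of all genes split in this way was not counted, so the split is not shown to be particular to Notch2. On HFD 4 of the B lymphocyte-rich libraries were D316A-Tg and 1 was WT-Tg. Without those libraries the difference between genotypes was −0.18 ± 0.09 on chow and 0.15 ± 0.11 on HFD. Over 11 alternatives the chow value ran from −1.07 to −0.17, and Notch2 was called lower in 1, with the endothelial score as a covariate. That fit called 7917 of all genes on chow, against 1303 without a covariate.

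Notch1 had opposite signs on the 2 diets. On chow it was 61.7 to 84.5 CPM in D316A-Tg with a median of 65.6 CPM, against 77.3 to 94.8 CPM with a median of 82.2 CPM in WT-Tg. Library 9 of D316A-Tg on chow had the 84.5 CPM and alone overlapped WT-Tg, the other 5 being at most 67.7 CPM. On HFD Notch1 was 49.1 to 70.1 CPM in D316A-Tg with a median of 62.9 CPM, against 45.7 to 62.3 CPM with a median of 50.1 CPM in WT-Tg. The log2 fold changes were −0.32 ± 0.10 on chow and 0.25 ± 0.10 on HFD, and neither passed the threshold. Without library 9 the chow value was −0.40 ± 0.08 and passed. The chow value also passed in 4 of 11 alternatives, and over all 11 it ran from −0.37 to −0.21. These 4 were a mean count of at least 50, the B lymphocyte score as a covariate, all 24 libraries in a single fit and DESeq2. Notch4, the endothelial receptor, overlapped on both diets, with log2 fold changes of −0.27 ± 0.25 on chow and −0.24 ± 0.21 on HFD. It spanned 15.5 to 26.8 CPM in D316A-Tg and 16.5 to 43.9 CPM in WT-Tg on chow, and 19.6 to 42.2 CPM in D316A-Tg and 25.7 to 41.6 CPM in WT-Tg on HFD. Notch4 was called lower on chow without the B lymphocyte-rich libraries, at −0.68 ± 0.18, and had 0.21 ± 0.18 on HFD, with the sign turned. With the B lymphocyte score as a covariate it was −0.49 ± 0.16 and called on chow and 0.12 ± 0.17 on HFD. On chow that covariate gave 3776 calls over all genes, against 1303 without it. Without those libraries Notch1 was −0.21 ± 0.13 on chow and 0.39 ± 0.12 on HFD, neither called.

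**Figure D1:**
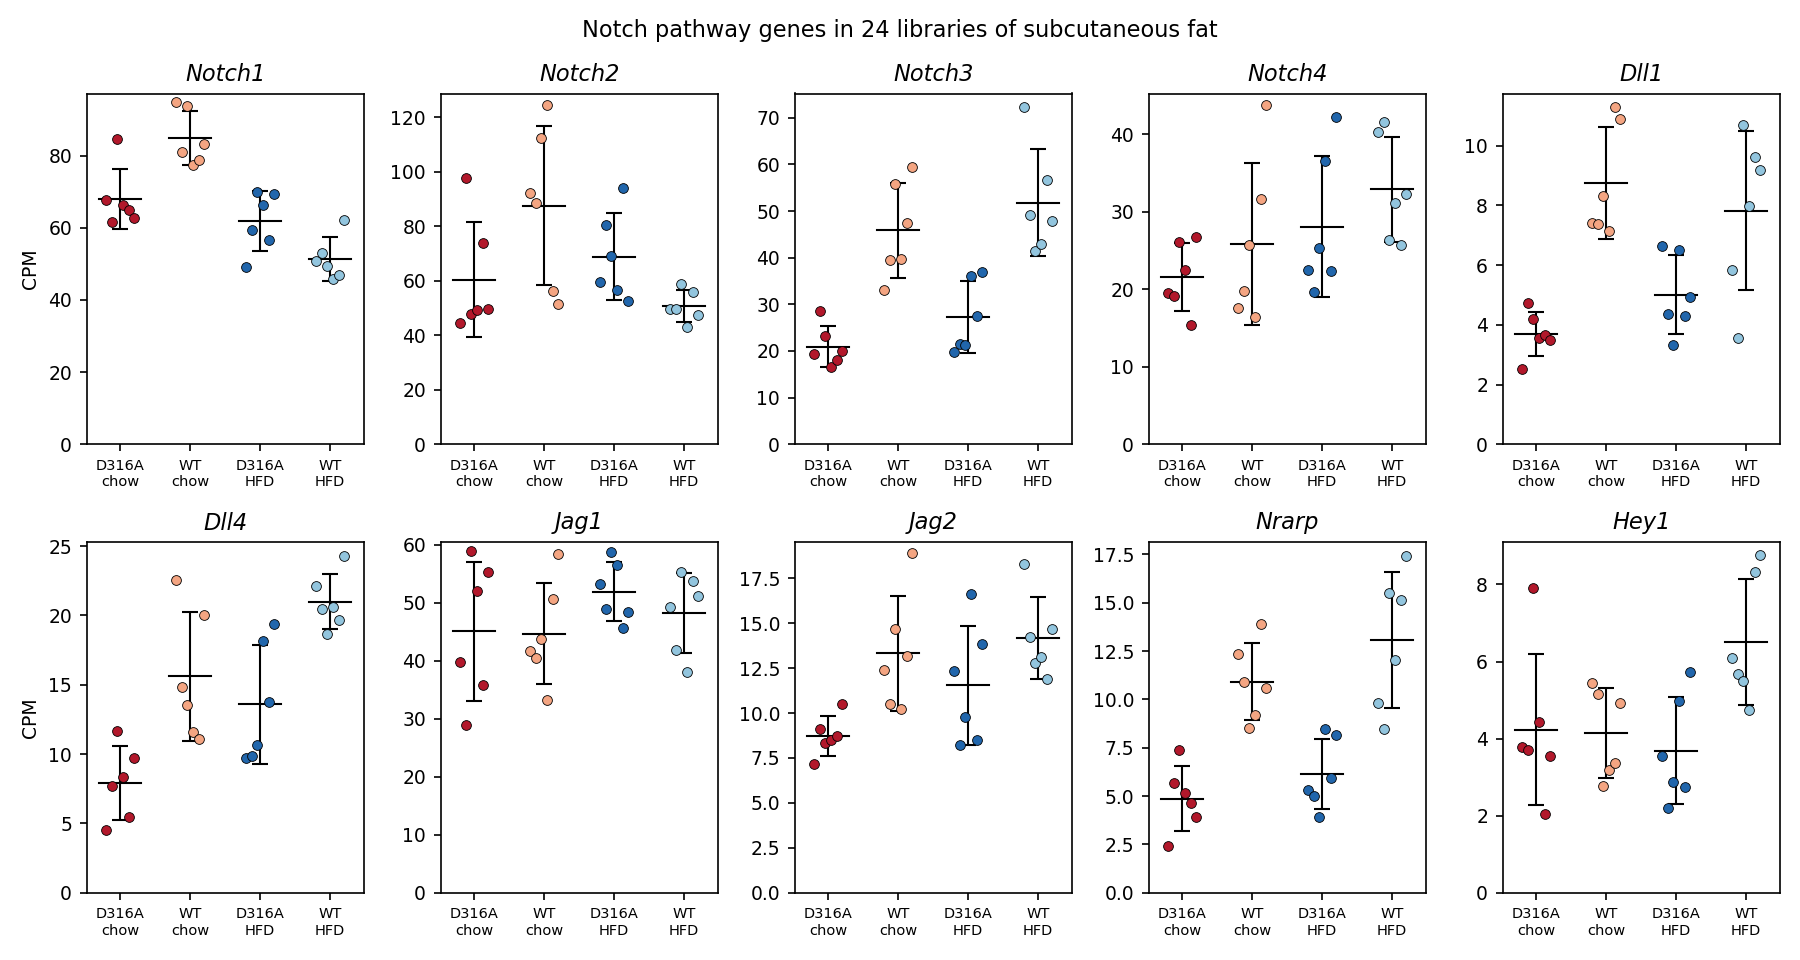
Levels of the 10 genes in CPM, 1 point per library, with the mean and SD of each group of 6 as bars. Notch3 and Nrarp show no overlap between D316A-Tg and WT-Tg on either diet, Dll1 shows none on chow, and Notch2 splits within groups, from 44.6 to 97.7 CPM in D316A-Tg chow libraries and from 51.6 to 125 CPM in WT-Tg chow libraries.

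Of the ligands, Dll1, Dll4 and Jag2 were called lower in D316A-Tg fat on chow and none was on HFD. Dll1, a Delta-like ligand, ran from 2.51 to 4.73 CPM in D316A-Tg chow libraries with a median of 3.60 CPM, against 7.13 to 11.3 CPM with a median of 7.87 CPM in WT-Tg chow libraries. The groups did not overlap, and the log2 fold change was −1.25 ± 0.19, the largest of the 10 genes on chow. On HFD Dll1 ran from 3.31 to 6.65 CPM in D316A-Tg with a median of 4.65 CPM, against 3.56 to 10.7 CPM with a median of 8.59 CPM in WT-Tg. There 2 WT-Tg libraries lay within the D316A-Tg range and the log2 fold change was −0.66 ± 0.26. Without the B lymphocyte-rich libraries the Dll1 value was −1.69 ± 0.22 on chow and −0.34 ± 0.38 on HFD.

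Dll4, the ligand of sprouting and arterial endothelium, was 4.56 to 11.7 CPM in D316A-Tg on chow with a median of 8.02 CPM, against 11.1 to 22.5 CPM with a median of 14.2 CPM in WT-Tg. On HFD it was 9.72 to 19.4 CPM in D316A-Tg with a median of 12.2 CPM, against 18.7 to 24.3 CPM with a median of 20.6 CPM in WT-Tg. On each diet only the highest D316A-Tg library reached the WT-Tg range. The log2 fold changes were −0.98 ± 0.26 on chow and −0.64 ± 0.18 on HFD. On chow the call held without D316A-Tg library 8 or WT-Tg library 5 and was lost in the other 10 fits that leave out 1 library, with values between −1.14 and −0.85. On HFD Dll4 passed without D316A-Tg library 10 or 12 or WT-Tg library 3, at −0.75, −0.77 and −0.66, and with DESeq2, at −0.64 ± 0.19. The chow call was also lost with the skeletal muscle score, at −0.91 ± 0.28, and the smooth muscle and pericyte score, at −1.02 ± 0.39, as a covariate. With the endothelial score as a covariate the values were −0.74 ± 0.31 on chow and 0.00 ± 0.12 on HFD, and without the B lymphocyte-rich libraries they were −0.86 ± 0.38 on chow and −0.19 ± 0.11 on HFD.

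Jag2 was 7.15 to 10.5 CPM in D316A-Tg chow libraries, against 10.2 to 18.9 CPM in WT-Tg, where only D316A-Tg library 12 reached the WT-Tg range. Its log2 fold change was −0.61 ± 0.16 on chow, a call that held without D316A-Tg library 8 or WT-Tg library 6 and was lost in the other 10 fits that leave out 1 library, with values between −0.68 and −0.58. It was −0.31 ± 0.19 on HFD, where D316A-Tg ran from 8.23 to 16.6 CPM and WT-Tg from 11.9 to 18.3 CPM. The chow call was also lost with no filter beyond 1 count (−0.61 ± 0.17) and with the skeletal muscle (−0.53 ± 0.17), endothelial (−0.30 ± 0.19) or smooth muscle and pericyte (−0.36 ± 0.25) score as a covariate. Jag2 without the B lymphocyte-rich libraries was −0.90 ± 0.21 on chow, still called, and 0.07 ± 0.18 on HFD, with the sign turned. Jag1 gave no such difference, with log2 fold changes of 0.01 ± 0.19 on chow and 0.09 ± 0.10 on HFD. It spanned 28.9 to 58.9 CPM in D316A-Tg and 33.1 to 58.3 CPM in WT-Tg on chow, and 45.7 to 58.7 CPM in D316A-Tg and 38.0 to 55.2 CPM in WT-Tg on HFD. Per kilobase of exon Jag1 was the most abundant of the 4 ligands in every group, with 7.74 ± 2.06 CPM per kb in D316A-Tg chow and 7.67 ± 1.50 in WT-Tg chow (SD, n = 6 each). Dll4 had 2.05 ± 0.69 CPM per kb in D316A-Tg chow and 4.05 ± 1.21 in WT-Tg chow, and Dll1 had 0.87 ± 0.18 in D316A-Tg chow and 2.07 ± 0.44 in WT-Tg chow.

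Nrarp, the feedback inhibitor, was lower in D316A-Tg fat on both diets. It ran from 2.44 to 7.38 CPM in D316A-Tg chow libraries with a median of 4.90 CPM, against 8.53 to 13.9 CPM with a median of 10.8 CPM in WT-Tg chow libraries. On HFD it ran from 3.93 to 8.46 CPM in D316A-Tg with a median of 5.64 CPM, against 8.46 to 17.4 CPM with a median of 13.6 CPM in WT-Tg. The genotypes did not overlap on chow, and on HFD the highest D316A-Tg library, at 8.460 CPM, lay just under the lowest WT-Tg library, at 8.465 CPM. The log2 fold changes were −1.16 ± 0.24 on chow and −1.10 ± 0.23 on HFD, or 2.24-fold and 2.14-fold lower. Without D316A-Tg chow library 10 or 12 the chow value was −1.19 ± 0.27 or −1.12 ± 0.26 and did not pass, and without WT-Tg HFD library 6 the HFD value was −1.01 ± 0.24 and did not pass. Without the B lymphocyte-rich libraries they were −1.37 ± 0.38 on chow and −0.60 ± 0.29 on HFD, and neither passed the threshold. Hey1, a repressor induced by Notch, overlapped between genotypes on chow, with 2.04 to 7.91 CPM in D316A-Tg and 2.76 to 5.44 CPM in WT-Tg and a log2 fold change of 0.03 ± 0.31. On HFD it was 2.21 to 5.73 CPM in D316A-Tg with a median of 3.21 CPM, against 4.74 to 8.77 CPM with a median of 5.88 CPM in WT-Tg, and the log2 fold change was −0.83 ± 0.26, or −1.01 ± 0.245 and called without D316A-Tg library 12. It passed with DESeq2, at −0.84 ± 0.27, and was −0.33 ± 0.27 without the B lymphocyte-rich libraries and −0.08 ± 0.26 with the endothelial score as a covariate, not called in either. Over all genes on HFD, 0 were called without those libraries and 1 with that covariate.

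**Figure D2:**
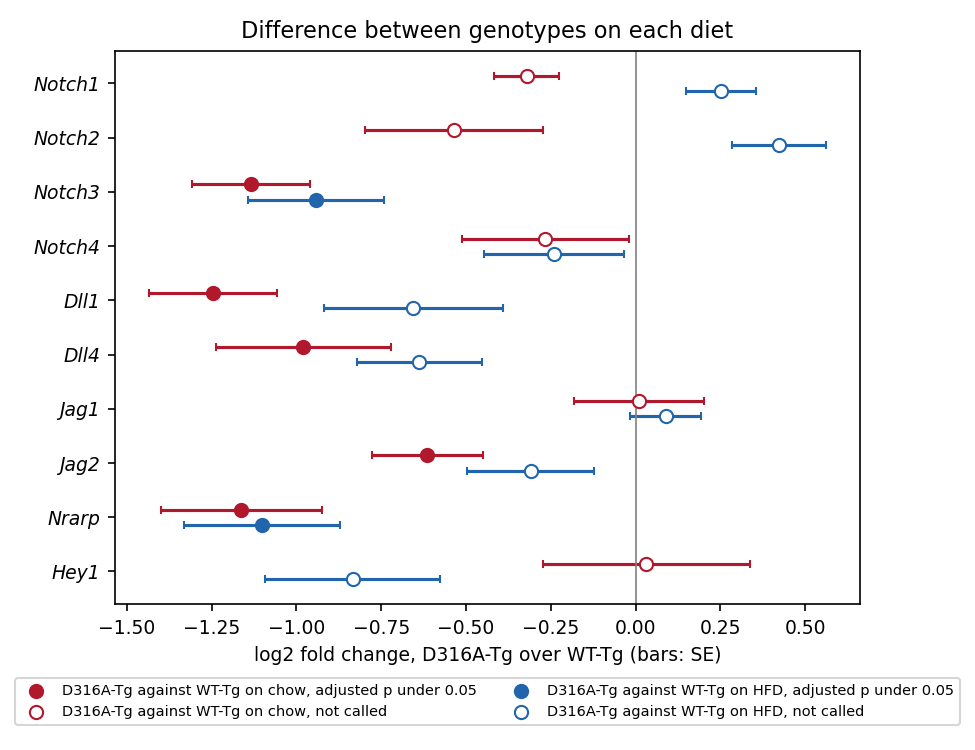
Log2 fold change of D316A-Tg over WT-Tg for each gene on chow (red) and HFD (blue), with the SE as bars and filled points at an adjusted p under 0.05. Notch3 lies at −1.13 on chow and −0.94 on HFD and Nrarp at −1.16 on chow and −1.10 on HFD, while Notch1 and Notch2 change sign between the diets.

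Counted over the 10 genes, 5 were called lower on chow (Notch3, Dll1, Dll4, Jag2 and Nrarp) and none higher, where 3.25% of all 15249 genes tested were called lower and 5.3% higher by the edgeR quasi-likelihood test at an adjusted p under 0.05. The genotypes did not overlap for 3 of the 10, where 1.83% of all genes had every D316A-Tg library below every WT-Tg library. On HFD 2 were called lower (Notch3 and Nrarp) and none higher, where 3.96% of 14649 genes were called lower and 4.51% higher, and those same 2 did not overlap, as for 1.68% of all genes. The median log2 fold change of the 10 was −0.57 on chow and −0.47 on HFD, beside −0.07 and 0.01 over all genes tested. These counts describe genes picked with the differences in view. With the skeletal muscle score as a covariate the HFD values were −0.83 ± 0.35 for Notch3 and −0.95 ± 0.41 for Nrarp and no gene of the whole table was called on HFD by edgeR, with 933 at an unadjusted p under 0.05.

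The fitted D316A effect was more positive on HFD than on chow for Notch1 and Notch2. The difference was 0.59 ± 0.14 on the log2 scale for Notch1 and 0.97 ± 0.31 for Notch2. Of the 10, these 2 passed the threshold for that difference. Over all 16072 genes 12.9% did, so 2 of 10 lies near the share over all genes. For Notch3 and Nrarp, the pair called on both diets, the difference between diets was 0.20 ± 0.26 and 0.07 ± 0.33, and for Dll1, called on chow alone, it was 0.60 ± 0.33. The Notch2 call held in 8 and the Notch1 call in 24 of the 24 fits that leave out 1 library, with values from 0.84 to 1.16 and from 0.48 to 0.65. Without the B lymphocyte-rich libraries the Notch2 value was 0.29 ± 0.14 and the Notch1 value 0.56 ± 0.19, and neither passed. Those of Notch3, Notch4, Dll1 and Jag2 were then 0.84 ± 0.27, 0.84 ± 0.28, 1.30 ± 0.46 and 0.93 ± 0.29, none called.

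Between diets, Notch1 was lower on HFD than on chow in WT-Tg fat, by −0.72 ± 0.10 with no overlap, and so was Notch2, by −0.79 ± 0.22 with overlap. In D316A-Tg fat Dll4 was higher on HFD, by 0.78 ± 0.23. Of all genes, 34.5% were called lower and 25.9% higher in WT-Tg, and 19.3% lower and 17.9% higher in D316A-Tg, so a call is common in these comparisons. Hey1 in WT-Tg, at 0.65 ± 0.28, passed in 9 of the 24 fits that leave out 1 library, with values from 0.66 to 0.76, Dll4 in WT-Tg passed without WT-Tg chow library 1, at 0.56, and Notch3 in D316A-Tg without D316A-Tg chow library 8, at 0.49. The Notch2 value in WT-Tg was −0.13 ± 0.10 without the B lymphocyte-rich libraries. Without those libraries Notch3, Notch4 and Jag2 were called higher on HFD in D316A-Tg, at 0.85 ± 0.19, 0.69 ± 0.20 and 0.78 ± 0.21, beside Dll4 at 1.08 ± 0.29. Diet, age, deposited table and base-call software change together between these groups and cannot be told apart.

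Within groups, Notch4 and Notch3 followed markers of the vessel wall on both diets, while Dll4, Hey1 and Nrarp followed them less closely on chow than on HFD. Only these 5 genes were related to such a score, so Notch1, Jag1 and Jag2 were not examined in this way. Over the 24 libraries, with each group centred on its mean, Notch4 and the endothelial score (14 markers, all 14 above 1 CPM on average) had Pearson's r = 0.87 and Spearman's rho = 0.82, with p = 1e-05, the smallest that the permutations can give, and p = 4e-05 (two-sided permutation test within groups, adjusted p = 5e-05 and 0.00020 over 5 relations). The r was 0.90 within chow and 0.82 within HFD, and 0.80 without the 2 libraries farthest from the median score. Notch3 and the smooth muscle and pericyte score had r = 0.70 and rho = 0.76 (permutation p = 0.00090 and 0.00021, adjusted p = 0.0022 and 0.00052), with r = 0.65 within chow, 0.76 within HFD and 0.74 without 2 libraries. The endothelial score had r = 0.55 and rho = 0.57 with Dll4 (permutation p = 0.019 and 0.010, adjusted p = 0.019 and 0.017), and r was 0.33 within chow, 0.95 within HFD and 0.43 without 2 libraries. For Hey1 r was 0.55 and rho 0.47 (permutation p = 0.011 and 0.034, adjusted p = 0.018 and 0.034), with r = 0.37 within chow, 0.82 within HFD and 0.46 without 2 libraries. For Nrarp r was 0.48 and rho 0.43 (permutation p = 0.016 and 0.033, adjusted p = 0.019 and 0.034), with r = 0.40 within chow, 0.59 within HFD and 0.48 without 2 libraries. Library composition is shared by both sides of each relation.

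Endothelial markers lay on the same side. All 14 had a negative log2 fold change on both diets, with a median of −0.68 on chow and −0.61 on HFD, and 3 were called lower on chow and 5 on HFD. The endothelial score was 4.83 to 5.65 in D316A-Tg and 5.43 to 6.38 in WT-Tg on chow, and 4.98 to 5.90 in D316A-Tg and 5.76 to 6.14 in WT-Tg on HFD. Pecam1 had −0.79 ± 0.23 on chow and −0.44 ± 0.16 on HFD, and Cdh5, the vascular cadherin, −0.74 ± 0.30 on chow and −0.74 ± 0.23 on HFD, none past the threshold (edgeR, adjusted p = 0.0520, 0.0890, 0.122 and 0.0663). With the endothelial score as a covariate, the Nrarp difference was −0.89 ± 0.28 on chow, still called, and −0.59 ± 0.29 on HFD, not called. The Nrarp call on chow was lost with the skeletal muscle score, at −1.10 ± 0.26, and with the smooth muscle and pericyte score, at −0.91 ± 0.34, and on HFD with the B lymphocyte score, at −1.02 ± 0.26. For Notch4 on chow, the value with the endothelial score as a covariate was 0.48 ± 0.17, with the sign turned and called higher. With that score as a covariate 7917 of all genes were called on chow, against 1303 without a covariate, so a call is common there. On HFD that score left 1 gene of the whole table called and the B lymphocyte score 25, against 1241 without a covariate.

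**Figure D3:**
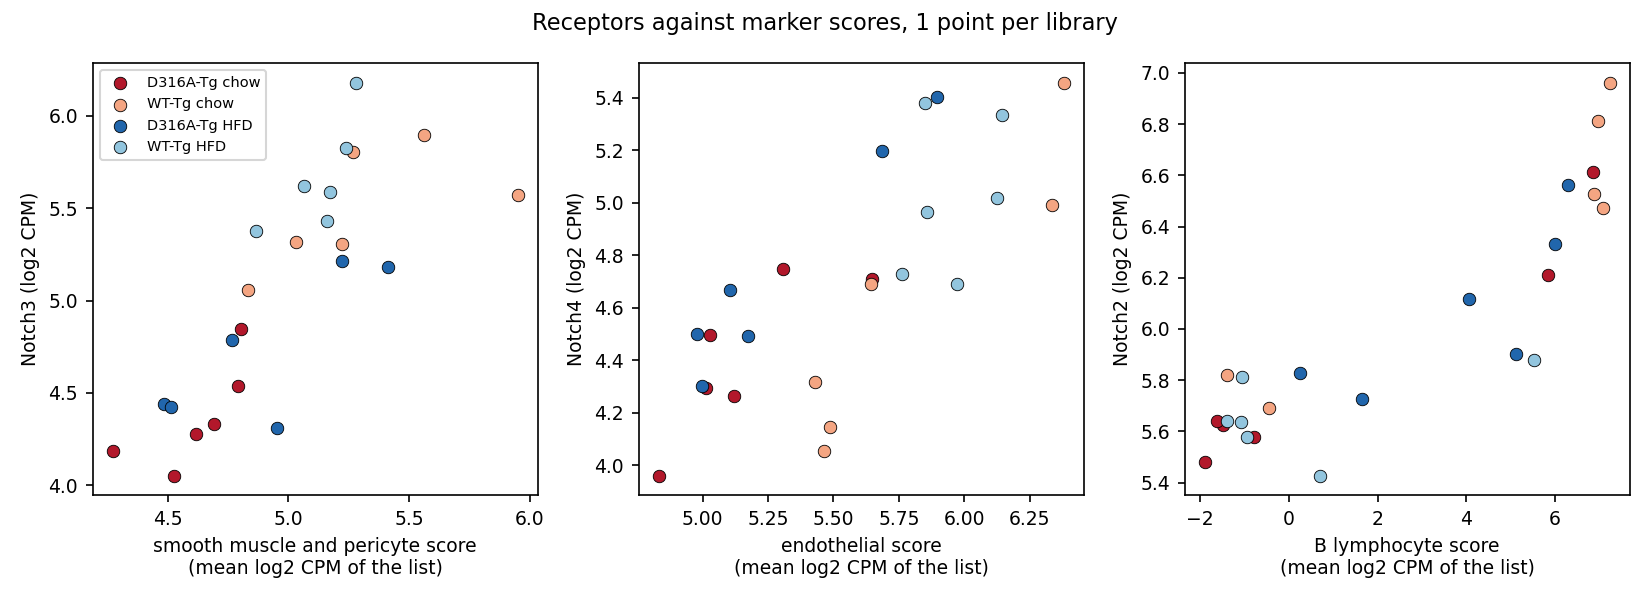
Log2 CPM of Notch3, Notch4 and Notch2 against the smooth muscle and pericyte, endothelial and B lymphocyte scores, 1 point per library coloured by group. D316A-Tg chow libraries have smooth muscle and pericyte scores of 4.27 to 4.80 and Notch3 of 16.5 to 28.6 CPM, and the B lymphocyte-rich libraries, with scores of 4.06 or more, hold the higher Notch2 values on each diet.

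The genes did not move as a block. With groups centred, the closest pairs were Notch4 with Jag2 (r = 0.77), Dll1 with Nrarp (r = 0.73), Dll4 with Hey1 (r = 0.72) and Notch3 with Notch4 (r = 0.65), and Notch2 ran against Notch4 (r = −0.71) and Jag1 (r = −0.64). These r values describe 24 libraries that share depth and composition. Outside the pathway, among 10799 genes with a mean of at least 5 CPM, the genes closest to Notch4 were Esam (r = 0.93), an endothelial adhesion molecule, Gpr56 (0.93) and Sox17 (0.91), a transcription factor of arterial endothelium. Closest to Dll4 were Apln (0.82), the apelin peptide made by endothelial tip cells, Unc119 (0.79) and Bcl6b (0.78). Closest to Notch3 were Lama5 (0.86), a laminin chain of basement membrane, Stard9 (0.85) and Gucy1a3 (0.84), a subunit of the nitric oxide receptor of smooth muscle.

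Notch2 lay closest to Mdc1 (r = 0.96), Plcg2 (0.95), a phospholipase of B cell receptor signalling, and Lpcat1 (0.95). Dll1 lay closest to Med31 (0.73), Ets2 (0.64) and Zfp948 (0.61), and Nrarp to AI846148 (0.76), Ets2 (0.72) and Sema4c (0.68). Jag1 lay closest to Bbs5 (0.90), Cldn12 (0.88) and Mfsd9 (0.84), Jag2 to Arhgef5 (0.78), Nova2 (0.78) and Btbd3 (0.77), Notch1 to Srp72 (0.76), Nab1 (0.75) and Fbxl20 (0.74), and Hey1 to Mcm8 (0.83) and Mogat2 (0.76). For Cldn12 and Mfsd9 the likeness to Jag1 rested on chow, with r = 0.96 and 0.94 there against 0.51 and 0.45 within HFD.

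**Figure D4:**
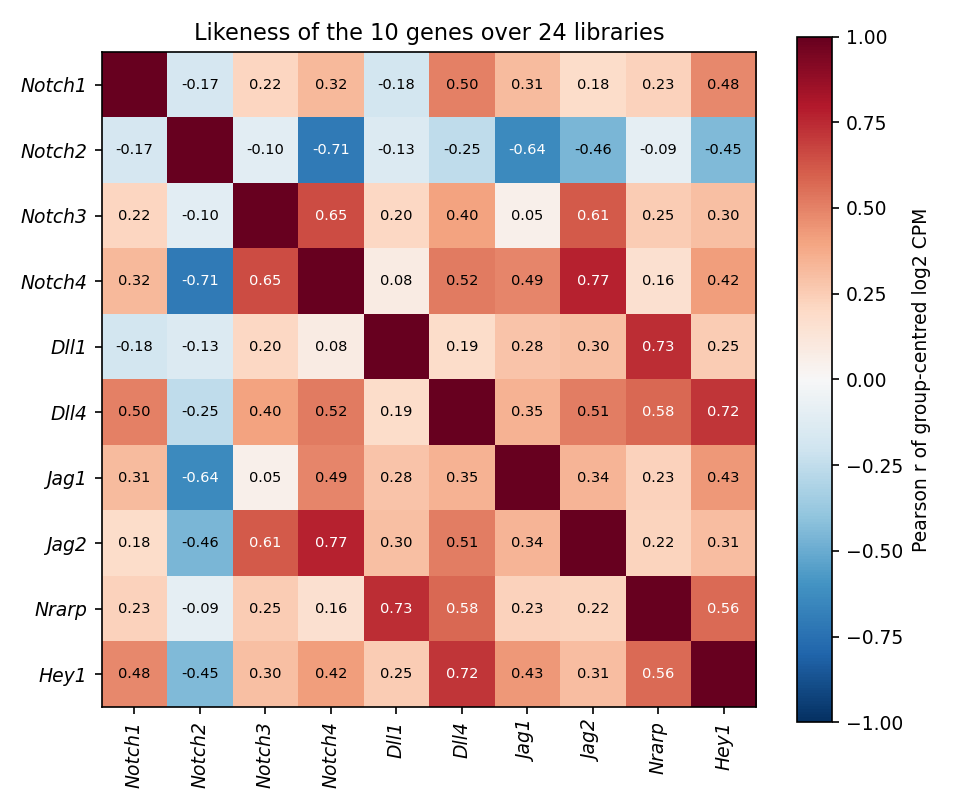
Pearson's r between the 10 genes over 24 libraries after each group was centred on its mean log2 CPM, from blue (negative) to red (positive). Dll1 pairs with Nrarp at 0.73, Notch4 with Jag2 at 0.77, and Notch2 is negative against the other 9 genes.

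The rest of the pathway was read from 47 further genes grouped by role, of which 41 were tested on each diet. This list too was drawn up with earlier results of these data known, so its counts beside the shares over all genes are a description. The decoy and non-canonical ligands Dll3, Dlk1, Dlk2 and Dner and the targets Hes5 and Hes7 were too low to test there. On chow 6 were called lower and 1 higher, with a median log2 fold change of −0.21, where 3.25% of all genes were called lower and 5.3% higher. On HFD 3 were called lower and 2 higher, with a median of −0.00, where 3.96% of all genes were called lower and 4.51% higher.

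Among the enzymes that act on ligands and receptors, Mib1, a ubiquitin ligase that licenses ligands for signalling, rose on chow by 0.77 ± 0.12 (edgeR, adjusted p = 0.0100). It ran from 61.2 to 84.3 CPM in D316A-Tg and from 34.7 to 52.4 CPM in WT-Tg, with no overlap. On HFD Mib1 was 92.8 to 120 CPM in D316A-Tg and 92.7 to 108 CPM in WT-Tg, and the difference between diets was −0.71 ± 0.14 (edgeR, adjusted p = 0.00357). Neurl1b, another such ligase, fell on chow by 0.61 ± 0.15 on the log2 scale (edgeR, adjusted p = 0.0362), and Ncstn, the nicastrin subunit of γ-secretase, by 0.36 ± 0.07 (edgeR, adjusted p = 0.0213), both without overlap. None of the other 5 subunits of γ-secretase passed on either diet. Lfng, a glycosyltransferase that tunes which ligands a receptor answers, had −1.19 ± 0.59 on chow and −0.33 ± 0.14 on HFD (edgeR, adjusted p = 0.191 and 0.147).

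In the nucleus, the coactivator Maml1 fell on chow by 0.63 ± 0.14 on the log2 scale, and the corepressor Spen by 0.56 ± 0.13 (edgeR, adjusted p = 0.0245 and 0.0288). Dtx3, of the Deltex family of ubiquitin ligases, fell by 0.97 ± 0.21 (edgeR, adjusted p = 0.0252), with 18.6 to 43.9 CPM in D316A-Tg and 48.4 to 55.6 CPM in WT-Tg. On HFD Rbpj fell by 0.50 ± 0.14 on the log2 scale (edgeR, adjusted p = 0.0439), with 27.7 to 41.9 CPM in D316A-Tg and 39.0 to 62.1 CPM in WT-Tg. On HFD Dtx4 also fell, by 0.73 ± 0.20 (edgeR, adjusted p = 0.0427), while the acetyltransferase Ep300 rose by 0.48 ± 0.11 and Spen by 0.35 ± 0.09 (edgeR, adjusted p = 0.0259 and 0.0367). The difference between diets passed for Spen (0.93 ± 0.16), Maml1 (0.61 ± 0.16) and Tle3 (0.70 ± 0.20), all more positive on HFD (edgeR, adjusted p = 0.00277, 0.0181 and 0.0257). None of these passed without the B lymphocyte-rich libraries, with Spen at 0.65 ± 0.20, Maml1 at 0.14 ± 0.15 and Tle3 at 0.57 ± 0.33, and neither did Mib1, at −0.58 ± 0.19. It also passed for Neurl1a (5.11 ± 1.22, edgeR, adjusted p = 0.0109), which had 0.58 to 24.6 CPM in D316A-Tg and 0.39 to 1.50 CPM in WT-Tg on HFD, against 0.47 to 1.06 CPM in D316A-Tg and 0.30 to 12.9 CPM in WT-Tg on chow. Its value turned to −0.54 with the skeletal muscle score as a covariate.

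Of the targets, Heyl, the HEY-family repressor of vascular smooth muscle, fell on HFD by 0.56 ± 0.12 on the log2 scale (edgeR, adjusted p = 0.0227), with 6.20 to 8.03 CPM in D316A-Tg and 9.52 to 13.96 CPM in WT-Tg and no overlap. On chow Heyl had −1.12 ± 0.35 (edgeR, adjusted p = 0.0677), with 3.13 to 9.80 CPM in D316A-Tg and 5.18 to 20.97 CPM in WT-Tg. Hes1 had −0.54 ± 0.19 on chow and −0.30 ± 0.12 on HFD, and Hey2 −0.33 ± 0.21 on chow and −0.46 ± 0.24 on HFD, none past the threshold (edgeR, adjusted p = 0.0822, 0.111, 0.297 and 0.201). The labels number the libraries without saying that each came from a separate animal, so the p-values measure only how these samples spread, which may in part be technical. Without the B lymphocyte-rich libraries Mib1 on chow was 0.67 ± 0.16 and Dtx3 −1.34 ± 0.10, both still called, and none of the other 10 calls made on the single diets passed. On HFD no gene of the whole table passed without those libraries. In the 12 fits that leave out 1 library of a diet, the Mib1 and Heyl calls held in all 12 and Ncstn in 8, while Neurl1b, Maml1, Spen and Dtx3 on chow held in 4, all without D316A-Tg library 8 or 11 or WT-Tg library 5 or 6. On HFD Ep300 held in 6, Spen in 5, and Rbpj and Dtx4 in 3 of the 12. With the B lymphocyte, skeletal muscle, endothelial or smooth muscle and pericyte score as a covariate none of these 5 HFD calls passed, and with the skeletal muscle score the chow calls of Neurl1b, Ncstn, Spen and Dtx3 were lost. Over all genes on HFD, those covariates left 25, 0, 1 and 346 called in that order, against 1241 without them. On chow the skeletal muscle score left 235 called, against 1303.

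**Figure D5:**
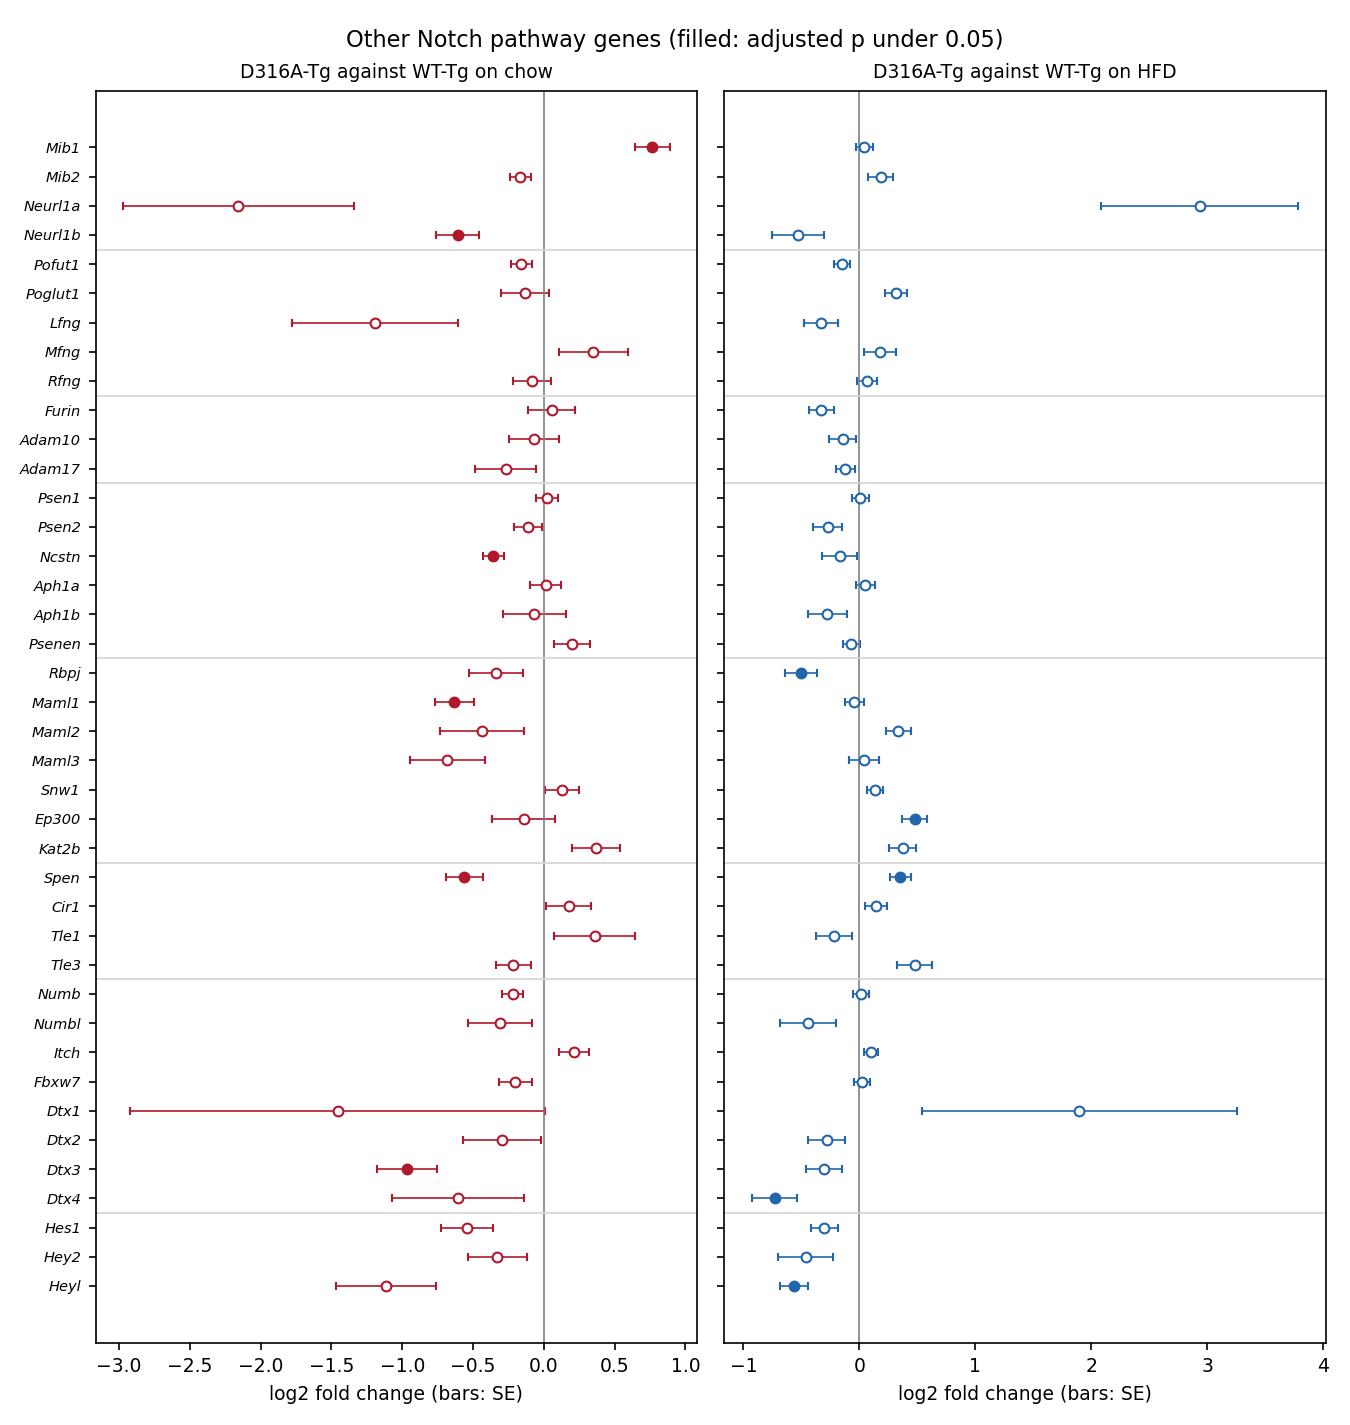
Log2 fold change of D316A-Tg over WT-Tg for further pathway genes tested on chow (left) and HFD (right), with the SE as bars, filled points at an adjusted p under 0.05 and lines between roles. Mib1 stands at 0.77 on chow, Dtx3 at −0.97 on chow and Heyl at −0.56 on HFD.

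Between diets, the γ-secretase subunit Psenen was higher on HFD by 2.49 ± 0.10 in WT-Tg and 2.23 ± 0.10 in D316A-Tg (edgeR, adjusted p = 1.7e-15 and 9.0e-15), and Aph1a by 1.20 ± 0.09 and 1.25 ± 0.09 (edgeR, adjusted p = 3.1e-10 and 1.6e-10). Psenen had 31.8 to 41.5 CPM in D316A-Tg and 33.6 to 39.9 CPM in WT-Tg on HFD, against 6.05 to 8.95 CPM in D316A-Tg and 5.97 to 7.30 CPM in WT-Tg on chow. Over the 42 further genes tested, 12 were called higher and 8 lower in WT-Tg, and 15 higher and 1 lower in D316A-Tg. Of all genes, 25.9% were called higher and 34.5% lower in WT-Tg, and 17.9% higher and 19.3% lower in D316A-Tg. The genes called in both genotypes in the same direction were Mib1, Adam10, Aph1a, Aph1b, Psenen, Rbpj, Cir1, Itch and Pofut1, higher on HFD, and Mib2, lower on HFD. In WT-Tg alone Furin, the protease of receptor maturation, Psen2 and Tle1 were called higher (0.61 ± 0.14, 0.43 ± 0.11 and 0.56 ± 0.24) and Dlk1, Dtx3, Spen, Poglut1, Rfng and Maml1 lower (−1.67, −1.12, −0.66, −0.46, −0.37 and −0.37). In D316A-Tg alone Maml3 (0.97 ± 0.21), Tle3 (0.70 ± 0.14), Maml2 (0.67 ± 0.23) and Numb (0.18 ± 0.07) were called higher. Neurl1a was called in both, lower on HFD in WT-Tg (−2.12 ± 0.85) and higher in D316A-Tg (2.99 ± 0.88), and both signs turned with the skeletal muscle score as a covariate. Without WT-Tg chow library 6 the WT-Tg value was −0.92 ± 0.76, and without D316A-Tg HFD library 7 the D316A-Tg value was 1.62 ± 0.73, neither called. Without the B lymphocyte-rich libraries Tle1 was 0.06 ± 0.18, Maml1 −0.01 ± 0.10 and Poglut1 −0.18 ± 0.09 in WT-Tg, and Neurl1a was 1.97 ± 0.86 in D316A-Tg, none called, while Furin at 0.36 ± 0.13, Rfng at −0.58 ± 0.09 and Spen at −0.43 ± 0.14 in WT-Tg were still called. The Tle1 call held in 9 and the Numb call in 14 of the 24 fits that leave out 1 library. A call in one genotype alone does not show that the genotypes differ, which was tested above. The 2 diets come from tables whose gene symbols differ for 1347 shared identifiers, and the part of the annotation in these differences was not tested.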

How the data were processed

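Whole-gene read counts of 24 libraries, 6 in each of 4 groups, were deposited by the authors as a chow table of 39017 genes and an HFD table of 38483 genes, of which 38013 identifiers are shared. Per the submitters' processing notes the tools were bcl2fastq, FastQC, STAR 2.4.1 and DESeq2 with the build mm10, and the labels give base calling by bclfastq 2.16.0.10 on HFD and by bcl2fastq 2.20.0.422 on chow. For the counter, its annotation and its strand setting the labels give nothing. No row lacked a gene name (0 in each table), 0 per-sample columns were left unused, and no libraries were copies (lowest chi-square per degree of freedom within a group 14.4).

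Each diet was fitted by itself in R 4.3.3 with edgeR 4.0.16 (filterByExpr, TMM scaling, robust quasi-likelihood test, Benjamini-Hochberg adjusted p under 0.05), and differences between diets in 1 fit of the shared identifiers. The SE given with an edgeR log2 fold change is its absolute value divided by the square root of the quasi-likelihood F statistic, while DESeq2 values carry the SE that DESeq2 reports. CPM come from 1 TMM scaling over the 24 libraries, and log2 CPM use a prior count of 2. A score is the mean log2 CPM of a marker list, and score relations were permuted 100000 times within groups. Alternatives were RLE scaling, DESeq2 1.42.0, other filters, no robust step, scores as covariates, a single fit, the replicate block, leaving out each library and, added after seeing the data, leaving out the libraries with a B lymphocyte score above 3. On simulated counts 55.6% of genes changed by 1 on the log2 scale and 100% of those changed by 2 were called on chow (15117 genes), and 54.0% and 100% on HFD (14559 genes). These counts had the same dispersion for every gene and no differences in cell content between libraries. They therefore do not give the share of real changes that the comparisons would find.

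The 10 genes and all lists were chosen with earlier results of these data known. Named in the text are those 10, further pathway genes called in any comparison together with Hes1, Heyl, Rbpj and Lfng, and the 3 genes most like each member with at least 5 mean CPM, leaving out predicted genes, clones, receptor segments and pseudogenes. Hey2 was named after its values were seen. For 2 genes that this rule names, values are not reported here, though counts over lists include them. Loci are from GENCODE M21 and promoters from RefSeq on GRCm38.p6.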

Additional observations from a re-analysis of the deposited data

Results flagged for a closer look

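Notch1 in D316A-Tg chow library 9 stood apart from its group at 84.5 CPM, with the next library at 67.7 CPM. On the log2 scale the gap was 0.706 of the group's range, above Dixon's 95% critical value for 6 libraries. This was 1 of 40 groups of libraries examined, and chance flags about 1 in 20. That library had a B lymphocyte score of −0.78 and an endothelial score of 5.65, the highest of the D316A-Tg chow libraries.

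The fitted effect of D316A was more positive on HFD than on chow, by 0.59 on the log2 scale for Notch1 and by 0.97 for Notch2. Both genes were chosen with earlier results known, so these are descriptions.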

How the results depend on the processing

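Called counts over all genes and, of the 10 pathway genes, were 1303 and 5 on chow, 1241 and 2 on HFD, 2080 and 2 for the difference between diets, 9709 and 2 for diet in WT-Tg and 5975 and 1 for diet in D316A-Tg. With no filter beyond 1 count they were 524 and 3 on chow, 795 of all genes on HFD, and 0 of the 10 (3 at an unadjusted p under 0.05) for the difference. DESeq2 called 2939 on chow, and 2932 and 5 on HFD, and a single fit of 24 libraries called 3615 on chow. With the B lymphocyte score as a covariate the counts were 3776 on chow, 25 and 0 (4 unadjusted) on HFD, 1275 and 1 for the difference, and 4 of the 10 for diet in D316A-Tg. With the skeletal muscle score they were 235 and 2 on chow, 0 and 0 (933 and 2 unadjusted) on HFD, and 252 and 1 for the difference. With the endothelial score they were 7917 on chow, 1 and 0 (1 of the 10 unadjusted) on HFD, and 3669 for the difference. With the smooth muscle and pericyte score they were 2685 and 1 on chow, 346 on HFD, 6210 for the difference, and 5 of the 10 for diet in WT-Tg. Leaving out the lymphocyte-rich libraries, chosen after seeing the data, left 4 D316A-Tg and 2 WT-Tg libraries on chow and 2 D316A-Tg and 5 WT-Tg on HFD, and gave 2305 on chow, 0 and 0 (1840 and 2 unadjusted) on HFD, 0 of the 10 (5 unadjusted) for the difference, 1 of the 10 for diet in WT-Tg and 4 in D316A-Tg. The share of chow calls that were higher was 62.0%, and 48.5%, 46.9% and 49.6% with the B lymphocyte score, the endothelial score and the lymphocyte-rich libraries left out. The cause of these moves was not tested.

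Leaving out 1 library gave 140 (without D316A-Tg chow library 7) to 3360 (without D316A-Tg chow library 8) calls on chow, with 2 to 5 of the 10, and 326 (without WT-Tg HFD library 6) to 3919 (without D316A-Tg HFD library 12) on HFD, with 1 to 5. It gave 1368 to 4304 for the difference, with 1 to 2, 8835 to 10317 for diet in WT-Tg, with 2 to 4, and 5291 to 6243 for diet in D316A-Tg, with 1 to 2. Neurl1a reversed with the skeletal muscle score, to −0.54 for the difference, 0.10 for diet in WT-Tg and −0.44 for diet in D316A-Tg. Of the single-gene values and the counts of further pathway genes under an alternative, 3155 were labelled the same, 227 kept direction but lost the call, and 169 moved further. For the 10 genes, the same means a shift smaller than the SE of the main fit, even where a call was lost. Lost calls were thus counted only for the further pathway genes.

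Replicate numbers recur on both diets, but the mice differ in age and the numbers were not taken to pair them. Same-numbered libraries correlated from −0.51 to 0.67, over 0.1 in 8 of 12 pairs, and 4 of the chow libraries lay closest to their own number. With the replicate block the counts were 2664 and 2 for the difference, 9520 and 4 for diet in WT-Tg and 5659 and 1 for diet in D316A-Tg. Depth limits the lowest of the 10 genes, with 31 counts in a library.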
